A study of Homo sapiens with 24 samples.

Results

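Replication-dependent histone cluster genes, the genes that supply the linker histone H1 and the core histones H2A, H2B, H3 and H4 for newly copied DNA, were followed in 4 prostate cancer cell lines treated with the BET bromodomain inhibitor I-BET762. The members were every probe set whose single gene symbol in the platform annotation named such a gene (a rule that reads no measured value, applied to a gene group proposed with earlier results of these data known). This gave 52 probe sets for 46 genes, of 54613 probe sets and 19775 genes in all. They held 7 probe sets of H1, 11 of H2A, 15 of H2B, 9 of H3 and 10 of H4. Most lay in the large cluster at 6p22, with 47 probe sets of 42 genes. H2BC21 lies at 1q21, H2AC25 and H3-4 lie at 1q42, and H2BC12L lies on chromosome 21. Both H2AC5P and H4C10P are annotated as pseudogenes. A further 20 probe sets matched several replication-dependent histone genes at once and were not counted as members.

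Cells make most of these histones in S phase, when new DNA has to be packaged. Their mRNAs are unusual in that they mostly lack introns and end in a stem-loop in place of a poly(A) tail. The stem-loop is bound by SLBP, while NPAT, a target of cyclin E and CDK2, drives their transcription. H2A, H2B, H3 and H4 form the octamer around which DNA is wound, and H1 sits where the DNA enters and leaves it. Some of the genes, H2BC21, H2BC5, H2BC12 and H1-2 among them, are also known to make polyadenylated mRNA outside S phase. BET proteins read acetylated histones and help RNA polymerase II to leave promoters, and I-BET762 keeps them off chromatin.

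The lines were LNCaP and VCaP, which respond to androgen, PC3, which lacks the androgen receptor, and NCI-H660, a neuroendocrine line. Each line was kept for 24 h in DMSO vehicle, 0.5 µM or 10 µM I-BET762, which the labels call GSK525762A, with 2 arrays labelled as biological replicates for each of the 12 groups and 24 arrays in all. The labels state that PolyA mRNA was extracted, so the values describe histone RNA that was carried through that step, and the share of histone mRNA with a poly(A) tail was not measured. In these bulk cultures, a change in the number of cells that make a histone mRNA and a change in its amount per cell cannot be told apart. The values are MAS5 signals, a brightness per probe set. The 2 arrays of a group correlated at 0.9338 to 0.9528 over all probe sets on the log2 scale, and the number of arrays limits the precision of each value.

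Markers of the lines went against a pair of labels. ERG, which the TMPRSS2-ERG fusion raises in VCaP, read 2866.8 to 7084.5 on the 6 arrays labelled LNCaP and 5.9 to 28.3 on the 6 labelled VCaP. ETV1, rearranged in LNCaP, read 14.5 to 90.3 on the arrays labelled LNCaP and 191.7 to 407.8 on the VCaP-labelled ones. These arrays are therefore called the arrays labelled LNCaP and the arrays labelled VCaP throughout. The PC3 and NCI-H660 labels met no such conflict in CD44, which read 6249 in PC3 vehicle and 35.7 to 279.2 in the other lines, and in CHGA, a granule protein of neuroendocrine cells, which read 2568 in NCI-H660 and 14.6 to 642.6 elsewhere. Other markers chosen for these 2 lines separated them less clearly or as well. VIM, chosen for PC3, read 1820.5 in PC3 vehicle and 1358.3 in NCI-H660. SYP, chosen for NCI-H660, read 194.5 there and 149.5 on the arrays labelled LNCaP. ENO2, also chosen for NCI-H660, read 10177.8 there and 170.8 to 2303.8 elsewhere. ERG read 65.5 to 142.7 on the NCI-H660 arrays, although that line is also known for the fusion.

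The stretches where transcription of these genes starts show what the members share. The RefSeq table (GRCh38.p14) held the 250 bases before and 50 after the start for 41 of the 46 genes, and none for H3C11, H2BC12L, H2AC5P, H4C1 and H4C10P. On either strand, the letters TATAAA stood in 28 of the 41 windows (68.3%) against 11.5% of all 35116 windows, CCAAT in 36 (87.8%) against 34.6%, and the octamer ATTTGCAT in 16 (39.0%) against 1.77%. No match to one motif overlapped a match to another motif, although TATAAA matches on opposite strands overlapped each other in H2BC12, H2BC11 and H3C7. CCAAT was in every window of H1, H2A, H2B and H3 and in 2 of 7 of H4. The octamer was in 6 of 8 H2A windows and 10 of 13 H2B windows and in none of the others. On the gene's own strand between bases -40 and -20, where a TATA box acts, TATAAA stood in 21 of 41 windows (51.2%) against 2.3% of all windows. The following 7 windows belong to genes described later and show H2A and H2B windows, an H3 window and the H4 windows, with these 3 motifs in capitals on either strand and each sequence read 5′ to 3′ along its gene.
H2BC21 (chr1:149886633-149886932, minus strand): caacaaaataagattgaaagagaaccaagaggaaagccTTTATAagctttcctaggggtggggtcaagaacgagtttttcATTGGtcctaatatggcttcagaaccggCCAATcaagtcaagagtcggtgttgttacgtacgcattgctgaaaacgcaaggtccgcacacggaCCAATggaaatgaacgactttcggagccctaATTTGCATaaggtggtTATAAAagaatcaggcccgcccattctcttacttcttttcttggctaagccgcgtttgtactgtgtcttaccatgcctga
H2BC12 (chr6:27146809-27147108, minus strand): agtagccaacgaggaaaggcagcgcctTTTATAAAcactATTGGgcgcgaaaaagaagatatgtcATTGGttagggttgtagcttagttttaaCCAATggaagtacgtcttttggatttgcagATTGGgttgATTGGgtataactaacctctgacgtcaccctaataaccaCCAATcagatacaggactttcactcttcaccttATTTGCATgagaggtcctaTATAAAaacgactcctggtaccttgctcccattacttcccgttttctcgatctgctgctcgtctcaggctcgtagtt
H2AC6 (chr6:26123922-26124221, plus strand): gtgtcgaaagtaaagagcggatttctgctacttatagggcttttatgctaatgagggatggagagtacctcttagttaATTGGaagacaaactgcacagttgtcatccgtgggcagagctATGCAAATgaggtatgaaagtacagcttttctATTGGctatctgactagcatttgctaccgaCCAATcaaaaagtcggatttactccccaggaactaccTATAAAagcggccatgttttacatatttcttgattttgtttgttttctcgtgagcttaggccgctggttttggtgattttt
H2AC8 (chr6:26216671-26216970, plus strand): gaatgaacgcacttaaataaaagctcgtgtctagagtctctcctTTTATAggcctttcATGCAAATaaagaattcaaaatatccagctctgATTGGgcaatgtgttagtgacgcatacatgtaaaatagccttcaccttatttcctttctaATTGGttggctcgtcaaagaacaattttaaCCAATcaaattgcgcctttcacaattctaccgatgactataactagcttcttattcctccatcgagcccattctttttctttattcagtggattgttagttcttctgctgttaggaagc
H3C2 (chr6:26032050-26032349, minus strand): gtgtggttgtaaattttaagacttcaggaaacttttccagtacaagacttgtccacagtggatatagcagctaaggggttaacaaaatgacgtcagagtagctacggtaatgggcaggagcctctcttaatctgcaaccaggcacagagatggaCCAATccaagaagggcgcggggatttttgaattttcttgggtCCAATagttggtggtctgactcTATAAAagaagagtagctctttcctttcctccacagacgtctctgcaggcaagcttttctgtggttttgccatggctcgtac
H4C5 (chr6:26204360-26204659, plus strand): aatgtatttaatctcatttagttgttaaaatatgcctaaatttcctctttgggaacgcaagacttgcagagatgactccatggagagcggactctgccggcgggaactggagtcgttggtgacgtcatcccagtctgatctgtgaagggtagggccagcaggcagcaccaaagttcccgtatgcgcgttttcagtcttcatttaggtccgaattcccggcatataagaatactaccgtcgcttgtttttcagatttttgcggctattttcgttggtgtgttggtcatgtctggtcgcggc
H4C8 (chr6:26285485-26285784, minus strand): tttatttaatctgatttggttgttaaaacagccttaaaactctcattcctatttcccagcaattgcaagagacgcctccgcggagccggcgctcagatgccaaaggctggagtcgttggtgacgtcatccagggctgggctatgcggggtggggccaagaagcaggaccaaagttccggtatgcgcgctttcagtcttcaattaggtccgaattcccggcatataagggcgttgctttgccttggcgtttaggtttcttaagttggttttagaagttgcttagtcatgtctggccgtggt
The window of H2AC6 runs into its neighbour, since the start of H2BC4 lies 246 bases away on the other strand. The same arrangement joins H2AC14 to H2BC14 at 245 bases, H2AC15 to H2BC15 at 194 and H2AC17 to H2BC17 at 240. Neither H4C5 nor H4C8 holds any of the 3 motifs. They share the 26 bases ttaggtccgaattcccggcatataag, starting 49 bases before each start, and no other of the 35116 windows holds them. This stretch was singled out after the values were seen.

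I-BET762 raised some of the 52 member probe sets in all 4 lines and lowered none of the 52 by the criteria used. A probe set was called when its limma adjusted p was under 0.1, it differed by more than 2-fold and its mean reached 100, the floor for detection, in one of the groups compared. On the arrays labelled LNCaP, 15 of 52 were called higher at 0.5 µM and 23 at 10 µM, where 2.13% and 5.89% of all probe sets were. Labelled VCaP arrays gave counts of 11 and 21, against 0.84% and 2.8%. PC3 gave 17 and 30, against 0.549% and 1.68%, and NCI-H660 gave 12 and 22, against 0.258% and 1.47%. As genes, the counts at the lower and the higher concentration were 13 and 21, 9 and 19, 15 and 28, and 10 and 19 of 46 for the same order of lines. Of all genes, 2.3% and 6.31%, 0.748% and 2.95%, 0.627% and 2.23%, and 0.344% and 2% were called higher.

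In limma's test 0 of the 52 were called lower in any line at either concentration. Of all probe sets, 1.85% and 4.87% fell on the arrays labelled LNCaP and 1.6% and 3.31% on the VCaP-labelled ones. In PC3 0.432% and 1.7% of all probe sets fell, and in NCI-H660 0.386% and 2.85%. With an unadjusted p below 0.05, 1 histone probe set was lower at each concentration in PC3 and 0 were in the other lines. The median log2 change over all 52 was 0.94 at 0.5 µM and 1.31 at 10 µM on the arrays labelled LNCaP, with 0.61 and 1.20 on the VCaP-labelled ones, 0.99 and 1.38 in PC3, and 0.80 and 1.23 in NCI-H660. Over all probe sets the medians lay between -0.08 and 0.15. These medians include members under the floor. With each group mean under 100 set at 100, the members' medians were 0.06 and 0.51, 0.38 and 0.40, 0.20 and 0.90, and 0.07 and 0.38 in the same order, against 0.00 over all probe sets in each comparison. Both concentrations were set against the same vehicle arrays.

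Of the 52 probe sets, 41 reached the floor in at least 1 of the 12 groups, 16 reached it in all, and 11 in none. Because a member at low signal could only be called where it was high, the calls were also counted where the fold against the floor itself was over 2. This left 13 and 18 on the arrays labelled LNCaP, with 8 and 18 on the VCaP-labelled ones, 15 and 24 in PC3, and 9 and 17 in NCI-H660. Over all probe sets, the share meeting this stricter rule can only be at or under the shares called higher given above. Fitted without the arrays labelled LNCaP and VCaP, PC3 gave 16 and 27 and NCI-H660 gave 10 and 21. With a separate limma model for every line, the calls in PC3 went to 0 at 0.5 µM (27 with an unadjusted p below 0.05) and to 16 at 10 µM, and those in NCI-H660 to 0 at 0.5 µM (25 with an unadjusted p below 0.05). In these refits the share over all probe sets was not counted, so the members' counts have no such comparison.

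**Figure D1:**
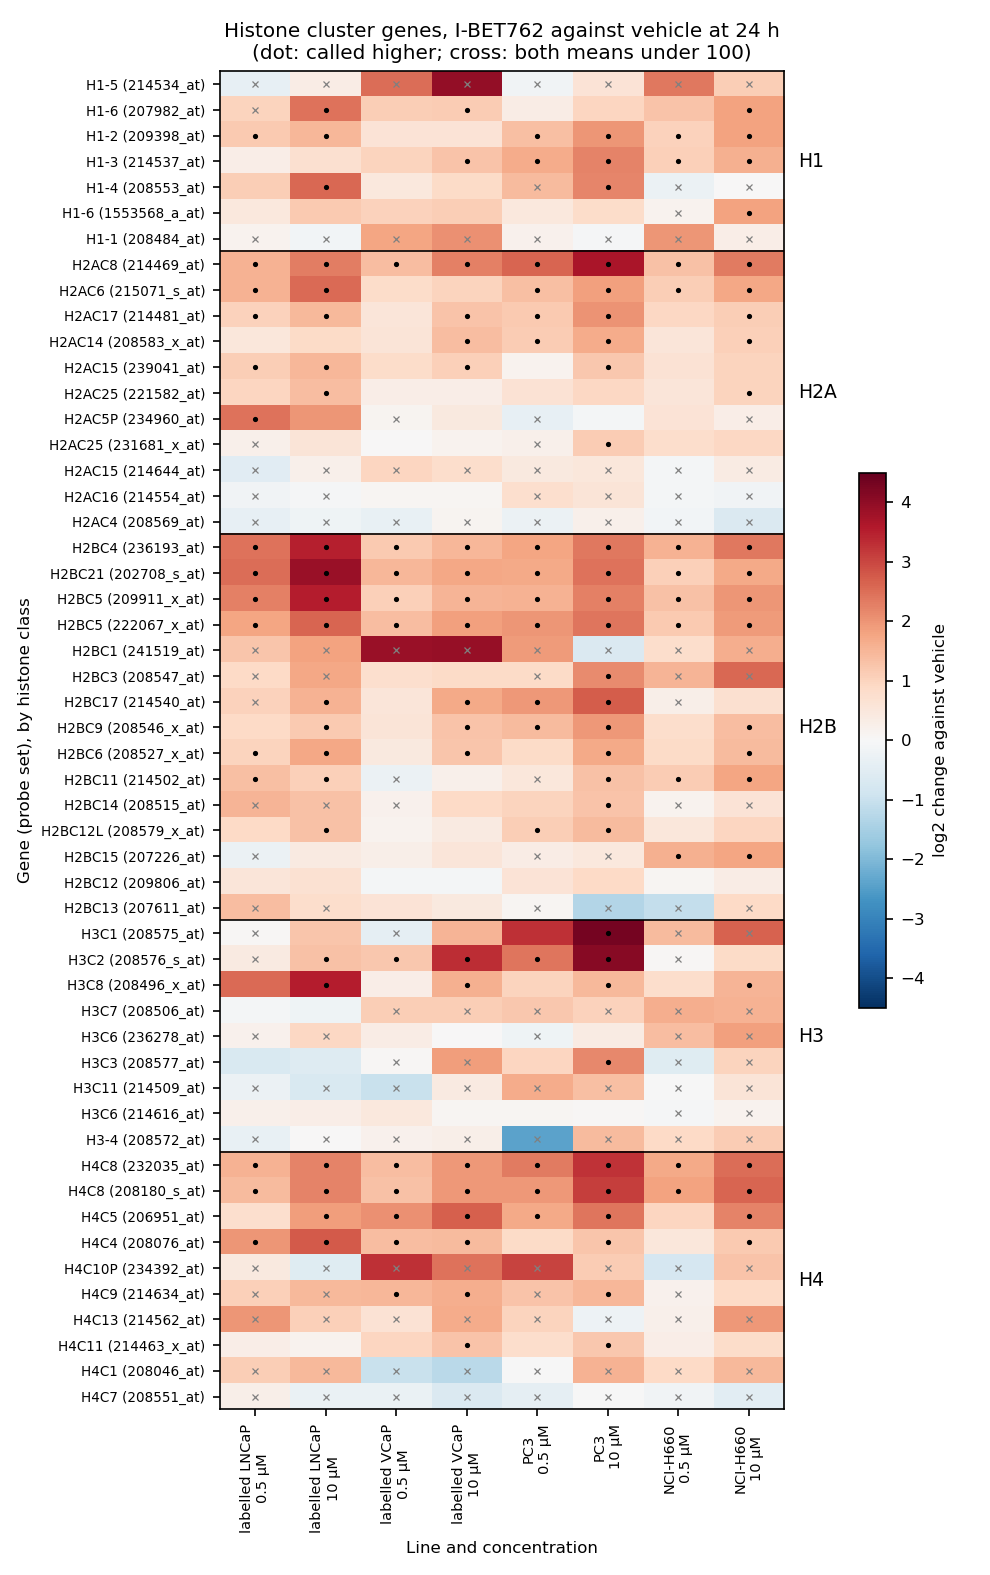
Each row is a histone probe set, grouped by class, and each column a line and concentration. Colour gives the log2 change against vehicle from blue (lower) to red (higher), a dot marks a probe set called higher, and a grey cross marks one whose means were under the signal of 100 in both groups. Where vehicle alone was under 100 the colour shows the fitted value, and the change is known as a lower bound. Red cells with dots fill the rows of H2BC4, H2BC21, H2BC5, H2AC8 and H4C8 across all 4 lines, and the largest changes without a dot lie in crossed cells.

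A core of 7 probe sets was called higher in all 4 lines at 0.5 µM, and 13 were at 10 µM, of 18 and 72 among all probe sets. The 7 measured 5 genes, H2AC8, H2BC21, H2BC4, H2BC5 and H4C8. With a separate model for every line 0 probe sets were called in all 4 lines at 0.5 µM and 10 probe sets of 8 genes at 10 µM. At 10 µM 11 genes were called by the same probe set in every line, which added H2AC17, H2BC6, H2BC9, H3C8, H4C4 and H4C5 to the first 5. Among the probe sets shared by several histone genes, a further 6 and 10 were called higher in all 4 lines. In all, 35 probe sets of 31 genes were called in at least 1 line and concentration, and 22 probe sets were called in 3 or 4 lines at 10 µM. No share over all probe sets stands beside these totals, and accepting a call in any of 8 comparisons raises such a count for any group of probe sets.

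H1, the linker histones, gave 1 of 7 probe sets called higher at 0.5 µM and 3 at 10 µM on the arrays labelled LNCaP, with 0 and 2 on the VCaP-labelled ones, 2 and 3 in PC3, and 2 and 4 in NCI-H660. With an unadjusted p below 0.05, 4 H1 probe sets were higher at 0.5 µM on the arrays labelled VCaP. H1-2, a variant most cells make, was called higher in 3 lines. H1-2 went from 5829 and 5758 in vehicle through 13109 and 13139.5 at 0.5 µM to 16719 and 15675 at 10 µM for the arrays labelled LNCaP, and from 12184 and 11453 through 18106 and 17789 to 18464 and 18118 on the VCaP-labelled ones. In PC3 H1-2 went from 2413 and 2281 through 6280.3 and 5634 to 9121 and 9524, and in NCI-H660 from 2832 and 2619.7 through 5551 and 5612 to 9692 and 9399. Treated arrays lay above vehicle in every line. For the labelled LNCaP arrays, PC3 and NCI-H660 the log2 change at 10 µM was 1.48, 1.99 and 1.81 (SE 0.10, limma adjusted p = 1.34e-07, 8.8e-08 and 2.07e-07). On the arrays labelled VCaP, where vehicle was highest, it was 0.63 (limma adjusted p = 0.000416) and fell short of the fold.

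H1-3, another linker histone of dividing cells, lay near the floor in vehicle. H1-3 went from 191 and 97.9 in vehicle through 160.1 and 178 at 0.5 µM to 239.8 and 214 at 10 µM for the arrays labelled LNCaP, and from 110.0 and 130.4 through 217 and 262 to 270.3 and 308 on the VCaP-labelled ones. In PC3 H1-3 went from 55.6 and 41.6 through 135 and 172 to 220.4 and 232, and in NCI-H660 from 69.4 and 60.1 through 146 and 125 to 217 and 173. Its arrays overlapped those of vehicle only at 0.5 µM on the arrays labelled LNCaP, the line in which it was not called. At 10 µM it rose 2.41-fold on the arrays labelled VCaP (limma adjusted p = 0.00384), and in PC3, where vehicle was under the floor, at least 2.26-fold (limma adjusted p = 0.000131). H1-6 is the testis-specific linker histone. H1-6 went from 48.3 and 41.4 in vehicle through 67.6 and 117 at 0.5 µM to 258 and 227 at 10 µM for the arrays labelled LNCaP, and from 61.1 and 46.9 through 94.9 and 139 to 109 and 128 on the VCaP-labelled ones. In PC3 H1-6 went from 86.7 and 64.7 through 64.8 and 138 to 151 and 142, and in NCI-H660 from 60.6 and 29.5 through 85.9 and 123 to 154 and 145. Treatment and vehicle overlapped at 0.5 µM in PC3. At 10 µM H1-6 was called in every line but PC3, from vehicle signals under the floor, so that the rise was at least 2.43-fold on the arrays labelled LNCaP, 1.19-fold on the VCaP-labelled ones and 1.49-fold in NCI-H660. Its other probe set was called only in NCI-H660 at 10 µM. H1-4 was called at 10 µM in PC3 and on the LNCaP-labelled arrays, while H1-1 and H1-5 stayed under the floor in all groups.

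H2A gave 5 and 5 of 11 probe sets called higher on the arrays labelled LNCaP, with 1 and 4 on the VCaP-labelled ones, 4 and 6 in PC3, and 2 and 5 in NCI-H660. H2AC8, a core H2A gene, was called in every line at both concentrations. H2AC8 went from 326 and 315 in vehicle through 917 and 983 at 0.5 µM to 1567 and 1568 at 10 µM for the arrays labelled LNCaP, and from 929.6 and 879 through 2530.1 and 2188 to 4451 and 4178 on the VCaP-labelled ones. In PC3 H2AC8 went from 344 and 332 through 2210.2 and 1952 to 4228 and 4444, and in NCI-H660 from 326 and 314 through 828 and 780.1 to 1665 and 1569. Signals at 10 µM lay above those at 0.5 µM, and those above vehicle, in all 4 lines. The log2 change in PC3 was 2.62 at 0.5 µM and 3.68 at 10 µM (SE 0.11, limma adjusted p = 1.14e-07 and 1.33e-09), a rise of 12.8-fold. In the other lines the change at 10 µM was 2.25 to 2.33. H2AC6 shares its upstream stretch with H2BC4. H2AC6 went from 1630.0 and 1685 in vehicle through 4558 and 5282 at 0.5 µM to 9387 and 9799.5 at 10 µM for the arrays labelled LNCaP, and from 5012 and 5178 through 9679.8 and 8294 to 9905 and 10318 on the VCaP-labelled ones. In PC3 H2AC6 went from 3392 and 3449.6 through 8965 and 8388 to 12321 and 12216, and in NCI-H660 from 1679.8 and 1809 through 3558 and 4059 to 5761 and 6023. No treated array overlapped vehicle. It was called in 3 lines at both concentrations, and on the arrays labelled VCaP the log2 change of 0.99 at 10 µM (limma adjusted p = 4.23e-05) lay just under the fold.

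H2AC17, H2AC14 and H2AC15 lie in head-to-head pairs with H2B genes. H2AC17 went from 202 and 143 in vehicle through 315 and 390.2 at 0.5 µM to 430.2 and 512 at 10 µM for the arrays labelled LNCaP, and from 694 and 659 through 1145 and 871 to 1656 and 1659 on the VCaP-labelled ones. In PC3 H2AC17 went from 73.9 and 118 through 189.8 and 231 to 334 and 427, and in NCI-H660 from 186 and 234 through 432 and 360.3 to 527 and 381. Every treated array was above vehicle, and all 4 lines were called at 10 µM (SE 0.26, highest limma adjusted p = 0.0126). The log2 changes were 1.10 to 1.46, and in PC3, with vehicle under the floor, the rise was at least 3.81-fold. H2AC14 went from 445 and 509.7 in vehicle through 916 and 506 at 0.5 µM to 776 and 944 at 10 µM for the arrays labelled LNCaP, and from 966 and 914 through 1504 and 1309 to 2259.9 and 2686 on the VCaP-labelled ones. In PC3 H2AC14 went from 452 and 414 through 963 and 957 to 1316 and 1465, and in NCI-H660 from 449 and 374 through 567 and 633 to 799.7 and 936. H2AC14 overlapped vehicle only on the arrays labelled LNCaP at 0.5 µM, and it was called in 3 lines at 10 µM with changes of 1.08 to 1.68. H2AC15 went from 134 and 71.6 in vehicle through 197 and 225 at 0.5 µM to 247 and 311 at 10 µM for the arrays labelled LNCaP, and from 392 and 301 through 585 and 642 to 749 and 690.0 on the VCaP-labelled ones. In PC3 H2AC15 went from 122 and 107 through 141 and 113 to 225 and 309, and in NCI-H660 from 154 and 183 through 223 and 306 to 327 and 339. H2AC15 overlapped vehicle at 0.5 µM in PC3, and was called in every line but NCI-H660 at 10 µM (1.07 to 1.50). A second probe set of H2AC15 stayed under the floor throughout.

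H2AC5P, an H2A pseudogene, was called only on the arrays labelled LNCaP at 0.5 µM. H2AC5P went from 17.7 and 50.8 in vehicle through 128 and 206 at 0.5 µM to 163 and 86.0 at 10 µM for the arrays labelled LNCaP, and from 94.3 and 71.3 through 109 and 72.3 to 119.5 and 104 on the VCaP-labelled ones. In PC3 H2AC5P went from 41.3 and 141 through 35.0 and 102 to 194 and 26.8, and in NCI-H660 from 90.2 and 65.9 through 153 and 88.8 to 94.4 and 97.6. Its replicate arrays differed widely, and treated arrays overlapped vehicle at both concentrations in PC3 and at 0.5 µM on the arrays labelled VCaP and in NCI-H660. In that one comparison the rise was at least 1.67-fold against the floor (limma adjusted p = 0.0802). H2AC25, the H2A gene of the 1q42 cluster, was called on the arrays labelled LNCaP and in NCI-H660 at 10 µM by one probe set and in PC3 by the other. H2AC16 and H2AC4 were called in no line.

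H2B pairs with H2A in the octamer. Of its 15 probe sets, 6 and 9 were called higher on the arrays labelled LNCaP, with 4 and 7 on the VCaP-labelled ones, 7 and 11 in PC3, and 6 and 8 in NCI-H660. H2BC21 encodes an H2B variant known from non-dividing cells and is the only member at 1q21. H2BC21 went from 330.1 and 401 in vehicle through 1984 and 2144 at 0.5 µM to 5308 and 5359 at 10 µM for the arrays labelled LNCaP, and from 4710.5 and 4625 through 13502 and 13004 to 15814 and 15211 on the VCaP-labelled ones. In PC3 H2BC21 went from 860.4 and 851 through 2906 and 2691 to 4905 and 4348, and in NCI-H660 from 1114 and 1085 through 2306 and 2353 to 3477 and 3709.6. Vehicle was lowest on the arrays labelled LNCaP and highest on the VCaP-labelled ones, and treated arrays lay above their own vehicle in each. The log2 change for labelled LNCaP arrays was 2.50 at 0.5 µM and 3.87 at 10 µM (SE 0.11, limma adjusted p = 8.37e-08 and 1.05e-09), or 14.7-fold. In the other lines it was 1.08 to 1.71 and 1.71 to 2.43.

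H2BC4 and H2BC5 are H2B genes of the 6p22 cluster with long annotated transcripts. H2BC4 went from 211 and 206 in vehicle through 1148 and 1106 at 0.5 µM to 2411 and 2357 at 10 µM for the arrays labelled LNCaP, and from 528 and 556 through 1228 and 1236 to 1562 and 1509 on the VCaP-labelled ones. In PC3 H2BC4 went from 415 and 479.8 through 1473 and 1598 to 2239.7 and 2340.0, and in NCI-H660 from 71.6 and 65.9 through 189 and 214 to 352 and 356. Groups did not overlap, and the log2 change at 10 µM was 3.51 on the arrays labelled LNCaP and 1.50 on the VCaP-labelled ones (SE 0.11, limma adjusted p = 1.05e-09 and 6.14e-07). The first H2BC5 probe set went from 918 and 878 in vehicle through 4165 and 4493 at 0.5 µM to 10536 and 10035 at 10 µM for the arrays labelled LNCaP, and from 4069 and 4326 through 8458 and 9410.0 to 12196 and 11929.7 on the VCaP-labelled ones. In PC3 the first H2BC5 probe set went from 2723 and 2487 through 8351 and 7092 to 12573 and 12305, and in NCI-H660 from 1885 and 1597 through 4184 and 4436 to 6665 and 6945. A second one moved alongside. The second H2BC5 probe set went from 1289.9 and 1154 in vehicle through 3959 and 4311 at 0.5 µM to 7683 and 7227 at 10 µM for the arrays labelled LNCaP, and from 3598 and 2467 through 7529.7 and 8027 to 11192 and 10103 on the VCaP-labelled ones. In PC3 the second H2BC5 probe set went from 1877 and 1856 through 8289 and 6663 to 11139.9 and 8670.5, and in NCI-H660 from 1834 and 1533 through 3530.3 and 4066 to 7185 and 5488. Both were called in every line at each concentration, without overlap. At 10 µM the log2 changes were 1.52 to 3.52 for the first and 1.84 to 2.61 for the second.

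H2BC6 and H2BC9, more core H2B genes, were called in every line at 10 µM. H2BC6 went from 1512 and 1310.0 in vehicle through 2838 and 2814 at 0.5 µM to 5069 and 4306 at 10 µM for the arrays labelled LNCaP, and from 3359 and 3061 through 4291 and 4389.7 to 8219 and 7181 on the VCaP-labelled ones. In PC3 H2BC6 went from 1532 and 1410.2 through 2672 and 2722 to 4550.5 and 5073, and in NCI-H660 from 1078 and 944 through 1883 and 1744 to 2826 and 2569.7. H2BC6 arrays did not overlap vehicle, and the log2 changes at 10 µM were 1.26 to 1.73 (SE 0.13, highest limma adjusted p = 1.5e-05). H2BC9 went from 992 and 1090.4 in vehicle through 2064 and 1842 at 0.5 µM to 2272 and 2457 at 10 µM for the arrays labelled LNCaP, and from 1605 and 1586 through 2390.3 and 2329.7 to 3678 and 4012 on the VCaP-labelled ones. In PC3 H2BC9 went from 729 and 671 through 1892 and 1907 to 2317 and 3178, and in NCI-H660 from 556 and 532 through 958 and 927 to 1498 and 1347. Again no arrays overlapped vehicle, and the changes were 1.18 to 1.96. H2BC17, the partner of H2AC17, began under the floor except on the arrays labelled VCaP. H2BC17 went from 63.9 and 29.0 in vehicle through 78.8 and 98.1 at 0.5 µM to 93.1 and 173 at 10 µM for the arrays labelled LNCaP, and from 185 and 165 through 244 and 262 to 557 and 581 on the VCaP-labelled ones. In PC3 H2BC17 went from 20.3 and 45.5 through 116 and 119.5 to 232 and 176, and in NCI-H660 from 69.6 and 79.5 through 80.7 and 99.5 to 115 and 133.3. Treated arrays were above vehicle in all lines, and 3 lines were called at 10 µM. In PC3 the rise of H2BC17 was at least 2.04-fold against the floor.

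H2BC11 was called in 3 lines at 10 µM and not on the arrays labelled VCaP. H2BC11 went from 86.7 and 78.2 in vehicle through 193 and 233 at 0.5 µM to 123 and 245 at 10 µM for the arrays labelled LNCaP, and from 81.0 and 107 through 83.7 and 73.0 to 123 and 95.2 on the VCaP-labelled ones. In PC3 H2BC11 went from 79.8 and 60.1 through 110.3 and 86.1 to 174 and 172, and in NCI-H660 from 65.2 and 80.3 through 155 and 166 to 249.5 and 248. Both concentrations, on the arrays labelled VCaP, overlapped vehicle. H2BC15, the partner of H2AC15, was called in NCI-H660 alone. H2BC15 went from 102 and 77.1 in vehicle through 46.2 and 121 at 0.5 µM to 122 and 115 at 10 µM for the arrays labelled LNCaP, and from 105 and 146 through 153 and 142 to 185 and 177 on the VCaP-labelled ones. In PC3 H2BC15 went from 65.3 and 57.8 through 75.0 and 79.0 to 130.3 and 55.2, and in NCI-H660 from 65.6 and 42.1 through 154 and 169 to 149.5 and 214. Elsewhere treated arrays overlapped vehicle at one concentration or lay close to it. In NCI-H660 the rise was at least 1.61-fold and 1.82-fold (limma adjusted p = 0.0756 and 0.0134). H2BC12, named here for the highest mean log2 signal among the H2B probe sets, was not called anywhere. Its vehicle signal stood at the 98.64 to 99.58 percentile of all probe sets. On the arrays labelled VCaP, a call higher would have needed a signal above the highest read there for any probe set, 31854. H2BC12 went from 11276 and 10687 in vehicle through 15578 and 16100.1 at 0.5 µM to 18209.7 and 17411 at 10 µM for the arrays labelled LNCaP, and from 18236 and 17857 through 17282 and 16919 to 17505 and 16512 on the VCaP-labelled ones. In PC3 H2BC12 went from 10667 and 10065 through 16356 and 15117 to 19359 and 18761, and in NCI-H660 from 9470.5 and 8949 through 9496 and 10001 to 11547 and 11651. The arrays labelled VCaP were slightly below vehicle, with a log2 change of -0.09 at 10 µM (SE 0.09, limma adjusted p = 0.656), and PC3 gave the widest change, 0.88 (limma adjusted p = 6.67e-05). H2BC12L was called on the arrays labelled LNCaP at 10 µM and in PC3 at both concentrations, H2BC14 and H2BC3 in PC3 at 10 µM. H2BC1, the testis H2B, stayed under the floor, and H2BC13 was not called.

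H3 gave 0 and 2 of 9 probe sets called higher on the arrays labelled LNCaP, with 1 and 2 on the VCaP-labelled ones, 1 and 4 in PC3, and 0 and 1 in NCI-H660. The H3 genes at 6p22 encode the same protein, H3.1. At 0.5 µM, where 0 were called, 1 H3 probe set was higher at an unadjusted p under 0.05 on the arrays labelled LNCaP and 2 were in NCI-H660. H3C2 gave a wide spread between lines. H3C2 went from 56.2 and 67.2 in vehicle through 94.8 and 70.8 at 0.5 µM to 147 and 159.5 at 10 µM for the arrays labelled LNCaP, and from 71.8 and 60.3 through 175 and 136 to 636 and 666 on the VCaP-labelled ones. In PC3 H3C2 went from 64.7 and 86.5 through 362 and 444 to 1276 and 1304, and in NCI-H660 from 78.4 and 51.3 through 59.5 and 73.6 to 165 and 81.2. In NCI-H660 the arrays at 0.5 µM overlapped vehicle. From vehicle signals under the floor, the rise at 10 µM was at least 12.9-fold in PC3 (limma adjusted p = 3.19e-06), at least 6.51-fold on the arrays labelled VCaP (5.51e-06) and at least 1.53-fold on those labelled LNCaP (0.00507). H3C8 was called in all 4 lines at 10 µM and in none at 0.5 µM. H3C8 went from 19.3 and 14.8 in vehicle through 81.0 and 119 at 0.5 µM to 205 and 186 at 10 µM for the arrays labelled LNCaP, and from 208 and 156 through 347 and 143 to 548 and 549 on the VCaP-labelled ones. In PC3 H3C8 went from 91.9 and 70.2 through 139 and 182 to 230.4 and 210.4, and in NCI-H660 from 113 and 88.9 through 181 and 163 to 304 and 278. Its VCaP-labelled arrays overlapped vehicle at 0.5 µM. At 10 µM the log2 changes were 1.60 on the arrays labelled VCaP and 1.54 in NCI-H660 (SE 0.33). With vehicle under the floor, the rise was at least 1.96-fold on the arrays labelled LNCaP and 2.2-fold in PC3.

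H3C1 was called in PC3 at 10 µM. H3C1 went from 52.7 and 39.5 in vehicle through 30.6 and 74.6 at 0.5 µM to 124 and 95.3 at 10 µM for the arrays labelled LNCaP, and from 39.7 and 43.5 through 71.0 and 14.0 to 120.0 and 122 on the VCaP-labelled ones. In PC3 H3C1 went from 46.5 and 4.6 through 139.5 and 148 to 269.5 and 309, and in NCI-H660 from 2.0 and 12.1 through 9.3 and 19.3 to 28.0 and 34.0. In PC3 the treated arrays lay clear of vehicle, whose 2 arrays differed widely, and the rise at 10 µM was at least 2.89-fold (limma adjusted p = 0.0136). H3C6, named for the highest mean log2 signal among the H3 probe sets, was not called by either of its probe sets. H3C6 went from 184 and 89.0 in vehicle through 158 and 140.4 at 0.5 µM to 137 and 184 at 10 µM for the arrays labelled LNCaP, and from 503 and 469 through 644 and 699.6 to 559 and 483 on the VCaP-labelled ones. In PC3 H3C6 went from 219.5 and 217 through 252 and 219 to 262 and 195, and in NCI-H660 from 76.9 and 78.6 through 64.7 and 86.9 to 72.9 and 102. Arrays at 10 µM overlapped vehicle in every line, and the log2 changes ran from 0.05 to 0.31 (SE 0.29). H3C3 was called in PC3 at 10 µM, and H3C7, H3C11 and the testis gene H3-4 were called nowhere.

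H4 gave 3 and 4 of 10 probe sets called higher on the arrays labelled LNCaP, with 5 and 6 on the VCaP-labelled ones, 3 and 6 in PC3, and 2 and 4 in NCI-H660. Most H4 genes of the cluster encode the same protein. H4C8 was measured by 2 probe sets. The _s_at probe set of H4C8 went from 408 and 536 in vehicle through 1265 and 1247 at 0.5 µM to 1993 and 2436 at 10 µM for the arrays labelled LNCaP, and from 1438 and 1524 through 3890.5 and 3536 to 5793 and 5691 on the VCaP-labelled ones. In PC3 the _s_at probe set of H4C8 went from 499 and 579 through 2046 and 2089 to 4584 and 4658, and in NCI-H660 from 198 and 199.6 through 764 and 642 to 1202 and 1229. No array overlapped vehicle. The plain H4C8 probe set went from 294 and 582 in vehicle through 1232 and 1239 at 0.5 µM to 1876 and 1984 at 10 µM for the arrays labelled LNCaP, and from 1483 and 1685 through 3724 and 4599 to 6105 and 6037 on the VCaP-labelled ones. In PC3 the plain H4C8 probe set went from 489 and 474 through 2609.7 and 2282 to 4644 and 4425, and in NCI-H660 from 207 and 194 through 686 and 628 to 1081 and 1203. The paired probe sets gave nearly the same picture. At 10 µM the _s_at set gave log2 changes of 2.24, 1.96, 3.10 and 2.61 in labelled LNCaP and VCaP arrays and then PC3 and NCI-H660 (SE 0.14), and the plain set 2.22, 1.94, 3.23 and 2.51 (SE 0.23), with a highest limma adjusted p of 4.77e-05.

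H4C5 shares with H4C8 the stretch before the start printed above. H4C5 went from 87.5 and 57.2 in vehicle through 149.6 and 97.0 at 0.5 µM to 255 and 269 at 10 µM for the arrays labelled LNCaP, and from 203 and 174 through 813 and 733 to 1185 and 1230.3 on the VCaP-labelled ones. In PC3 H4C5 went from 119.9 and 131 through 397 and 415 to 665 and 655, and in NCI-H660 from 158 and 127 through 289 and 266 to 727 and 604. Groups did not overlap, and all 4 lines were called at 10 µM (SE 0.21, highest limma adjusted p = 2.02e-05). The log2 changes were 2.23 to 2.69, and on the arrays labelled LNCaP, with vehicle under the floor, the rise was at least 2.62-fold. H4C4 went from 30.1 and 26.5 in vehicle through 110.1 and 111 at 0.5 µM to 190.4 and 192 at 10 µM for the arrays labelled LNCaP, and from 73.6 and 72.8 through 209 and 173 to 204 and 189 on the VCaP-labelled ones. In PC3 H4C4 went from 102 and 158 through 228 and 237 to 322 and 283, and in NCI-H660 from 89.0 and 70.4 through 131 and 98.7 to 198 and 163. H4C4 began under the floor in 3 lines, did not overlap vehicle, and was called in all 4 lines at 10 µM, at least 1.91-fold on the arrays labelled LNCaP. H4C9 went from 31.1 and 20.1 in vehicle through 45.9 and 61.2 at 0.5 µM to 64.3 and 72.1 at 10 µM for the arrays labelled LNCaP, and from 35.0 and 65.9 through 102 and 179 to 124 and 176 on the VCaP-labelled ones. In PC3 H4C9 went from 30.7 and 49.4 through 129 and 69.4 to 146 and 81.2, and in NCI-H660 from 44.0 and 72.7 through 86.3 and 47.4 to 82.2 and 136. H4C9 overlapped vehicle only in NCI-H660 at 0.5 µM and was called on the arrays labelled VCaP at both concentrations and in PC3 at 10 µM. H4C11 was called on the arrays labelled VCaP and in PC3 at 10 µM, and H4C1, H4C7, H4C13 and H4C10P were called nowhere.

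**Figure D2:**
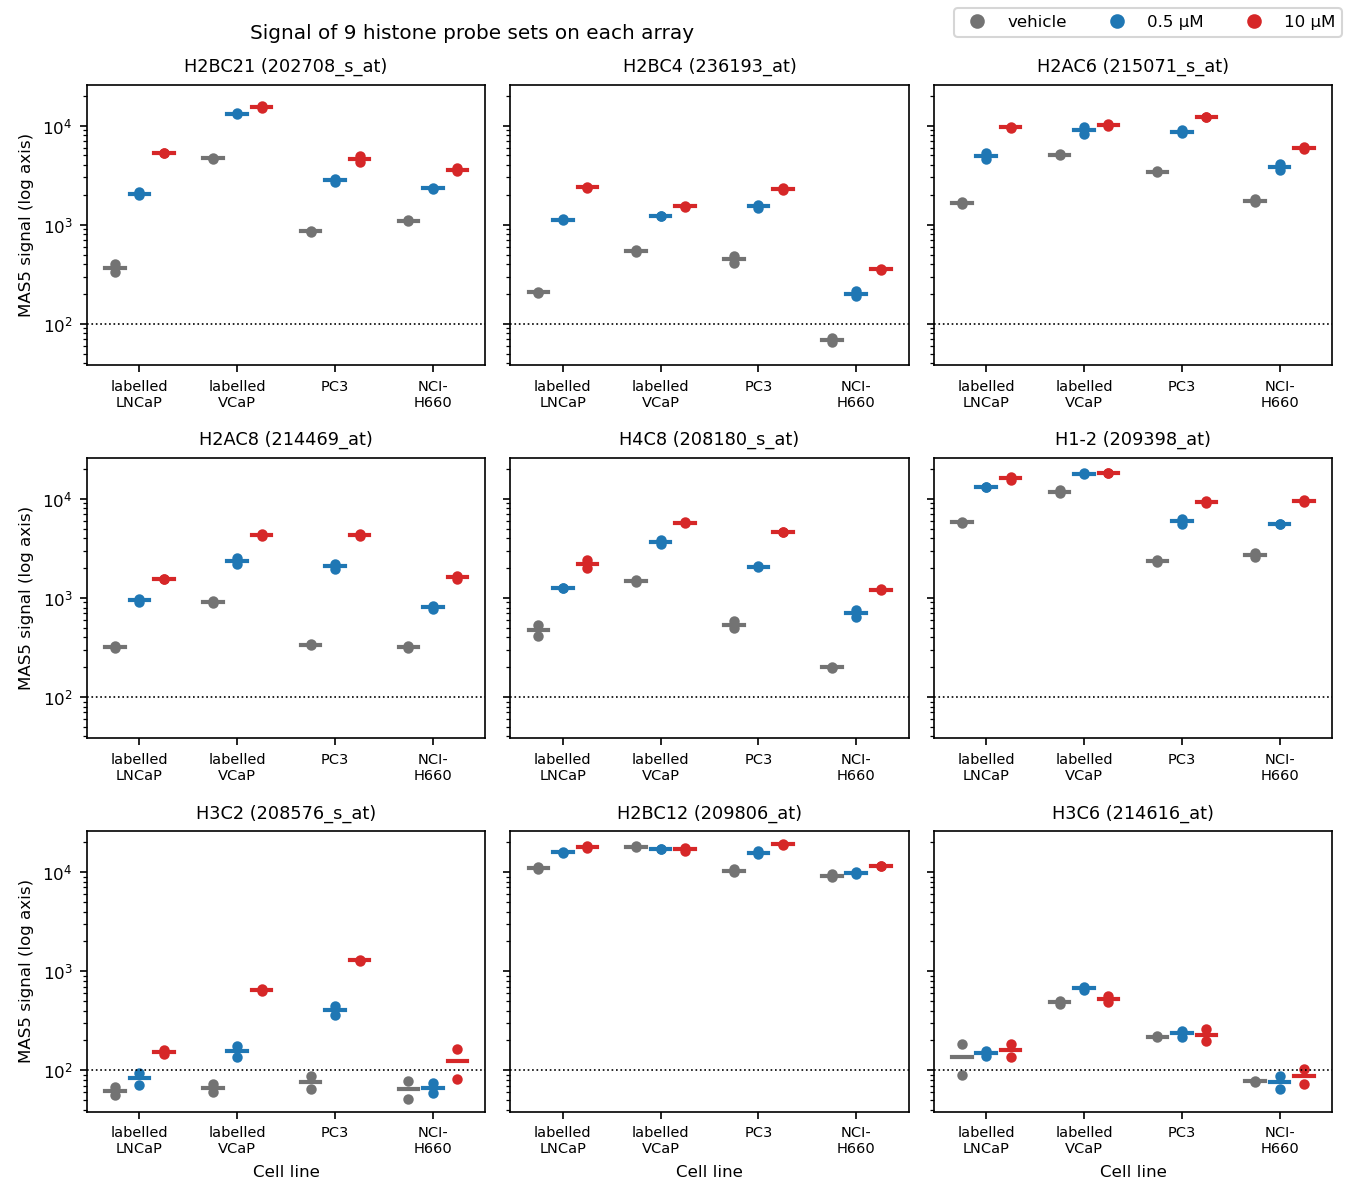
MAS5 signal on a log axis for 9 histone probe sets, with 1 panel each, the 4 lines along the horizontal axis, 1 point per array, a bar at the mean of 2 arrays, and a dotted line at the signal of 100. H2BC21, H2BC4, H2AC8 and H4C8 step up from vehicle (grey) through 0.5 µM (blue) to 10 µM (red) in every line, whereas H2BC12 and H3C6 stay within a 2-fold change. H2BC12 starts among the highest signals on the arrays.

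Set directly against 0.5 µM, 10 µM raised 5 histone probe sets on the arrays labelled LNCaP, with 2 on the VCaP-labelled ones, 3 in PC3 and 2 in NCI-H660, where 0.857%, 0.308%, 0.0696% and 0.11% of all probe sets rose. In the labelled LNCaP set these were H2BC21, H2BC4, H2BC5, H1-6 and H4C5. H2BC21 gained 1.37 (limma adjusted p = 1.78e-05), and H1-6, under the floor at 0.5 µM, rose at least 2.43-fold (limma adjusted p = 0.0452). H3C2 and H3C8 passed on the arrays labelled VCaP, with 2.08 (limma adjusted p = 0.00248) for H3C2. In PC3 they were H2AC8, H3C2 and H4C8, and in NCI-H660 H2AC8 and H4C5. H2AC8 gained 1.06 (limma adjusted p = 0.00112) in PC3 and 1.01 (limma adjusted p = 0.000598) in NCI-H660. With a separate model for every line 0 were called between the concentrations in any line, and 13 to 20 were higher at an unadjusted p under 0.05. By limma 0 fell between the concentrations, and at an unadjusted p under 0.05 2 fell in PC3 and 0 in the other lines.

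The size of the rise differed between lines for some members, as tested on the difference between the changes themselves. Between the arrays labelled LNCaP and VCaP, 5 histone probe sets differed at 0.5 µM and 10 at 10 µM (1.91% and 5% of all probe sets). Between those labelled LNCaP and PC3, 4 and 11 differed (1.99% and 6.48%), and between those labelled LNCaP and NCI-H660, 3 and 6 (2.84% and 9.55%). Between the arrays labelled VCaP and PC3 the counts were 1 and 5 (1.88% and 4.14%), between those labelled VCaP and NCI-H660 2 and 3 (2.32% and 6.67%), and between PC3 and NCI-H660 2 and 3 (0.443% and 2.6%). The share of members called lay near that of all probe sets at 0.5 µM between the arrays labelled VCaP and PC3, and at 10 µM between NCI-H660 and either labelled set. H2BC21 rose further on the arrays labelled LNCaP at 10 µM than on the VCaP-labelled ones, with a difference in log2 change of 2.14 (SE 0.16, limma adjusted p = 4.7e-06). H2BC4 and H2BC5 differed in the same direction. Of the 10 called between these at 10 µM, 7 had the larger change on the arrays labelled LNCaP and 3 on the VCaP-labelled ones. Of the 11 called between the arrays labelled LNCaP and PC3 at 10 µM, 5 were larger on the former and 6 in PC3. H2AC8 rose further in PC3 than in NCI-H660, by 1.35 (SE 0.15, limma adjusted p = 0.000642). Where any of the 4 group means lay under the floor, the size of a difference is not given. All 4 means reached it for 2 and 6 of those called between the arrays labelled LNCaP and VCaP, 1 and 6 between those labelled LNCaP and PC3, 1 and 2 between those labelled LNCaP and NCI-H660, 1 and 5 between those labelled VCaP and PC3, and 1 and 1 in both other pairs.

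Before treatment the lines differed in histone level. In vehicle the median member signal was 83.7 on the arrays labelled LNCaP, with 122.9 on the VCaP-labelled ones, 76.4 in PC3 and 73.7 in NCI-H660. Only the VCaP-labelled median reached the floor. In that order 23, 28, 21 and 20 of the 52 reached it, where 44.9%, 44.3%, 46.8% and 49.5% of all probe sets did. The arrays labelled VCaP gave the highest of the 4 vehicle means for 32 of the 52 probe sets, those labelled LNCaP for 10, PC3 for 8 and NCI-H660 for 2. This ranking includes members under the floor in every line. Set against those labelled LNCaP, the arrays labelled VCaP were called higher for 21 members and lower for 3, where 15.1% of all probe sets differed in either direction. They were higher than PC3 for 20 and lower for 0 (18.3%), and higher than NCI-H660 for 21 and lower for 0 (23.8%) by limma, with 3 and 1 lower at an unadjusted p under 0.05. The arrays labelled LNCaP were higher than PC3 for 4 and lower for 6 (18.8%), and higher than NCI-H660 for 8 and lower for 3 (24.1%). PC3 was higher than NCI-H660 for 6 and lower for 2 (24.2%). In these last 3 pairs the shares were close to or under those of all probe sets.

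The type of probe set bears on how far a signal belongs to 1 gene. On this platform a plain _at probe set is designed to match 1 transcript, _s_at probes are shared by related transcripts, and some probes of an _x_at set can match unrelated ones. Near-identical histone genes make the shared kinds open to signal from neighbours. Of the members, 38 were plain, 4 _s_at, 9 _x_at and 1 _a_at. Plain probe sets called higher were 9 and 13 of 38 on the arrays labelled LNCaP, with 6 and 11 on the VCaP-labelled ones, 8 and 17 in PC3, and 7 and 12 in NCI-H660. Among all plain probe sets on the platform 2.07% and 5.76%, 0.87% and 2.82%, 0.546% and 1.59%, and 0.254% and 1.31% were. The _s_at counts were 3 and 4, 3 and 3, 4 and 4, and 3 and 3 of 4 in the same order, against 2.28% and 6.54%, 0.77% and 2.98%, 0.505% and 1.98%, and 0.239% and 2.04% of all _s_at probe sets. The _x_at counts were 3 and 6, 2 and 7, 5 and 9, and 2 and 6 of 9, against 2.33% and 5.82%, 0.879% and 2.45%, 0.856% and 1.93%, and 0.357% and 1.5%. In that order the median log2 changes at 10 µM were 1.17, 0.99, 1.23 and 1.12 for the plain members and 1.31, 1.29, 1.68 and 1.38 for the _x_at members. With means under 100 set at 100 they were 0.07, 0.15, 0.23 and 0.00 for the plain members and 1.18, 1.29, 1.68 and 1.39 for the _x_at members. The 11 probe sets under 100 in all 12 groups are all plain, and this step gives them no change. These last medians therefore do not compare the types at like signal.

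**Figure D3:**
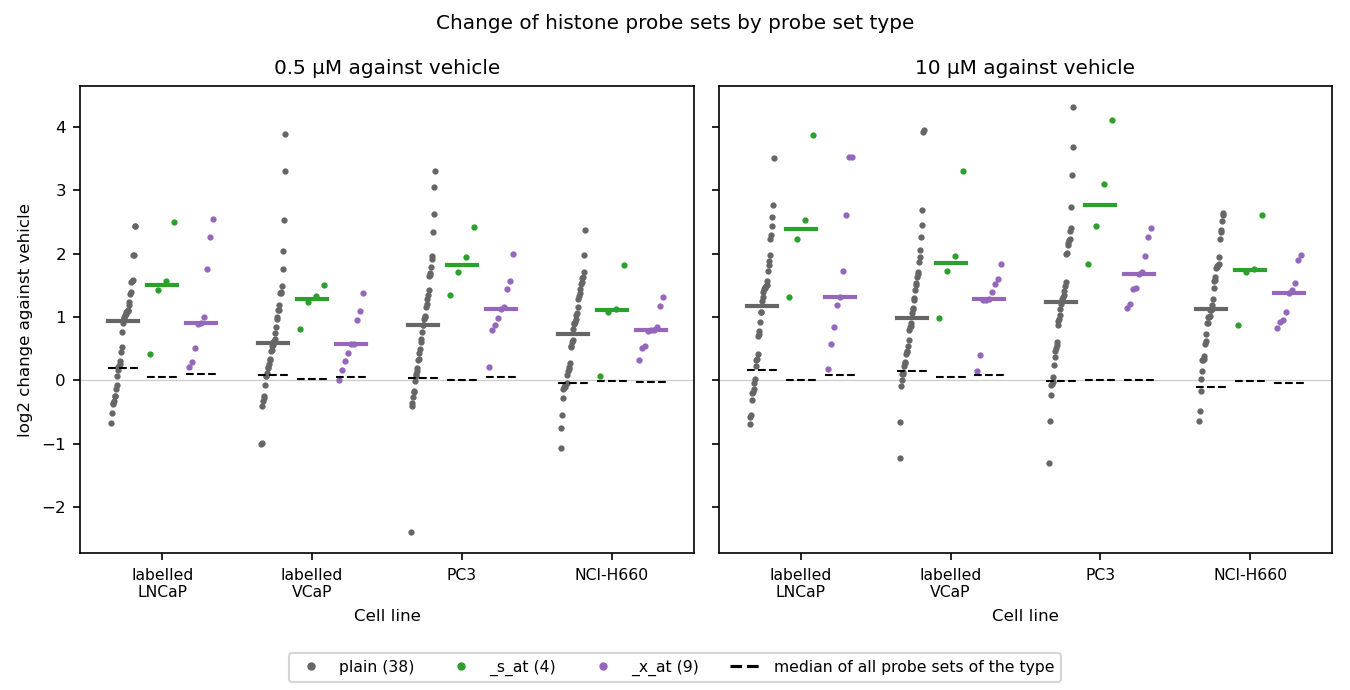
Log2 change against vehicle (vertical axis) of plain (grey), _s_at (green) and _x_at (purple) histone probe sets in each line, at 0.5 µM on the left and 10 µM on the right, with 1 point per probe set, a bar at the median and a dashed line at the median of all probe sets of that type; the single _a_at probe set is left out. The medians of all 3 types lie above the dashed lines, and every _x_at point at 10 µM lies above 0.

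The 20 probe sets that match several replication-dependent histone genes gave 11 and 14 called higher on the arrays labelled LNCaP, with 9 and 13 on the VCaP-labelled ones, 14 and 15 in PC3, and 11 and 15 in NCI-H660. A lone fall stood out on the arrays labelled VCaP, called at both concentrations. This probe set, of the plain type, is annotated to 14 H4 genes and was chosen for mention after its values were seen. It fell from 1187 and 1267 in vehicle through 549 and 536 at 0.5 µM to 318 and 301 at 10 µM. The arrays labelled LNCaP gave 1275 and 1347, 1099 and 1073, and 1065 and 1226 for the same groups. In PC3 it read 1232 and 1122, 1355 and 1059, and 856 and 830.4, and in NCI-H660 3092 and 2431, 4340.2 and 3182, and 4487 and 4474. On the arrays labelled VCaP, 4 other probe sets with the same annotation were called higher at 10 µM, as were 6 of the 10 single-gene H4 probe sets.

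Annotated length and motifs gave a further view of which members were called. Of the 46 genes, 5 span more than 1 kb in RefSeq (H2BC4, H2BC5, H2BC12, H2BC21 and H3C6), with 7 probe sets. The same 4 of 7 probe sets, those of H2BC4, H2BC5 and H2BC21, were called in each line at each concentration, and those of H2BC12 and H3C6 in none. For H2BC12 on the arrays labelled VCaP, a call higher would have needed a signal above any read there. Among the 45 probe sets of shorter genes, 11 and 19 were called on the arrays labelled LNCaP, with 7 and 17 on the VCaP-labelled ones, 13 and 26 in PC3, and 8 and 18 in NCI-H660. Of the H2A and H2B probe sets, 16 belong to a gene with the octamer ATTTGCAT in its window and 8 to one without. At 10 µM 9, 8, 12 and 9 of the 16 were called in the order of lines used above, and 4, 3, 4 and 4 of the 8. For TATAAA, 13, 13, 19 and 12 of 30 probe sets with it were called and 9, 8, 10 and 10 of 17 without it. These are counts side by side with no test.

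No S phase gene, histone chaperone gene or gene for making histone mRNA was called higher, and S phase genes fell on the labelled LNCaP and VCaP arrays. With an unadjusted p below 0.05, 0 of the S phase genes were higher in any comparison, 1 to 3 of the chaperone genes and 1 to 5 of the histone mRNA genes. Each gene of these lists is represented by 1 probe set. Of 14 S phase genes, such as the MCM helicase subunits that open replication origins, 9 were called lower at 0.5 µM and 11 at 10 µM for the arrays labelled LNCaP and 13 and 13 on the VCaP-labelled ones, where 2.71% and 6.74%, and 2.5% and 5%, of all genes were called lower. In PC3 and NCI-H660 0 were called lower by limma at either concentration, with 0.622% and 2.07%, and 0.576% and 3.68%, of all genes called lower. At an unadjusted p under 0.05, 2 and 7 of the 14 were lower in PC3 and 1 and 3 in NCI-H660. At 10 µM the list's median log2 change came to -1.67, -2.39, -0.21 and -0.12 in labelled LNCaP and VCaP arrays and then PC3 and NCI-H660. MCM5 fell from a mean of 2349.5 to 166 at 10 µM on the arrays labelled VCaP (log2 change -3.83, SE 0.16, limma adjusted p = 1.11e-08). RRM2, a subunit of ribonucleotide reductase, changed by -3.63 there, CDC6, which loads the helicase, by -3.27 and CDC45, part of the active helicase, by -3.24. Histone probe sets rose both where the S phase list fell and where none of it was called. The part of the S phase share of cells in the histone rise was not tested.

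Among 18 histone chaperone genes, 1 and 3 were called lower on the arrays labelled LNCaP (2.71% and 6.74% of all genes). On the VCaP-labelled ones 3 and 4 were (2.5% and 5%). PC3 gave 0 and 0 (0.622% and 2.07%), and NCI-H660 0 and 1 (0.576% and 3.68%). In PC3, 2 and 4 were lower at an unadjusted p under 0.05. CHAF1A, a subunit of the CAF-1 complex that places H3 and H4 on new DNA, and ASF1B, which hands them over, were among them, with a log2 change of -1.92 and -2.20 at 10 µM on the arrays labelled VCaP. SSRP1, a FACT subunit, fell there too, by a log2 change of -1.08, and IPO4, an importin of H3 and H4, fell on the arrays labelled LNCaP, by -1.61. Of 17 genes for histone transcription and 3′ end processing, 0 and 0 were called lower on the arrays labelled LNCaP, with 1 and 1 on the VCaP-labelled ones, 0 and 0 in PC3, and 0 and 1 in NCI-H660, in each case LSM11, a part of the U7 particle that cuts histone mRNA. At 10 µM on the arrays labelled VCaP and in NCI-H660, 1 of 17 was near the share of all genes called lower. Within PC3 and the labelled LNCaP set, 2 to 4 of the 17 were lower at an unadjusted p under 0.05 at a given concentration. The log2 change of SLBP was 0.26, -0.63, 0.16 and 0.56 at 10 µM in labelled LNCaP and VCaP arrays and then PC3 and NCI-H660 (SE 0.10). For NPAT it was 0.73, -0.13, 0.38 and -0.03 (SE 0.15). Neither gene was called in any line.

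Histone genes that cells use outside S phase gave a mixed picture. At an unadjusted limma p under 0.05, 2 and 3 of 9 were higher on the arrays labelled LNCaP at 0.5 and 10 µM. The VCaP-labelled ones gave 0 and 2, PC3 4 and 5, and NCI-H660 1 and 3. Lower in the same order were 1 and 2, 4 and 5, 1 and 2, and 1 and 1. The list's median log2 change at 10 µM was 0.31, -0.23, 0.50 and 0.24, against 0.06, 0.06, -0.01 and -0.07 over all genes. Of 9 such genes, MACROH2A2, a macroH2A variant linked to silent chromatin, was called lower in every line at 10 µM and also at 0.5 µM in PC3 and NCI-H660, with log2 changes of -2.07, -2.09, -2.58 and -2.68 at 10 µM (SE 0.31). CENPA, the centromere H3, fell on the arrays labelled VCaP at 0.5 µM (-1.24), and H2AJ rose in PC3 at 10 µM (means of 90.2 and 244.9), both named after their values were seen. None of the 4 lists held any other gene called higher. MYC, a gene BET inhibitors are known to lower, was called lower for the labelled LNCaP and VCaP arrays and not in the other lines, with log2 changes of -1.96, -2.61, -1.00 and 0.73 at 10 µM (SE 0.10), in the same order of lines.

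**Figure D4:**
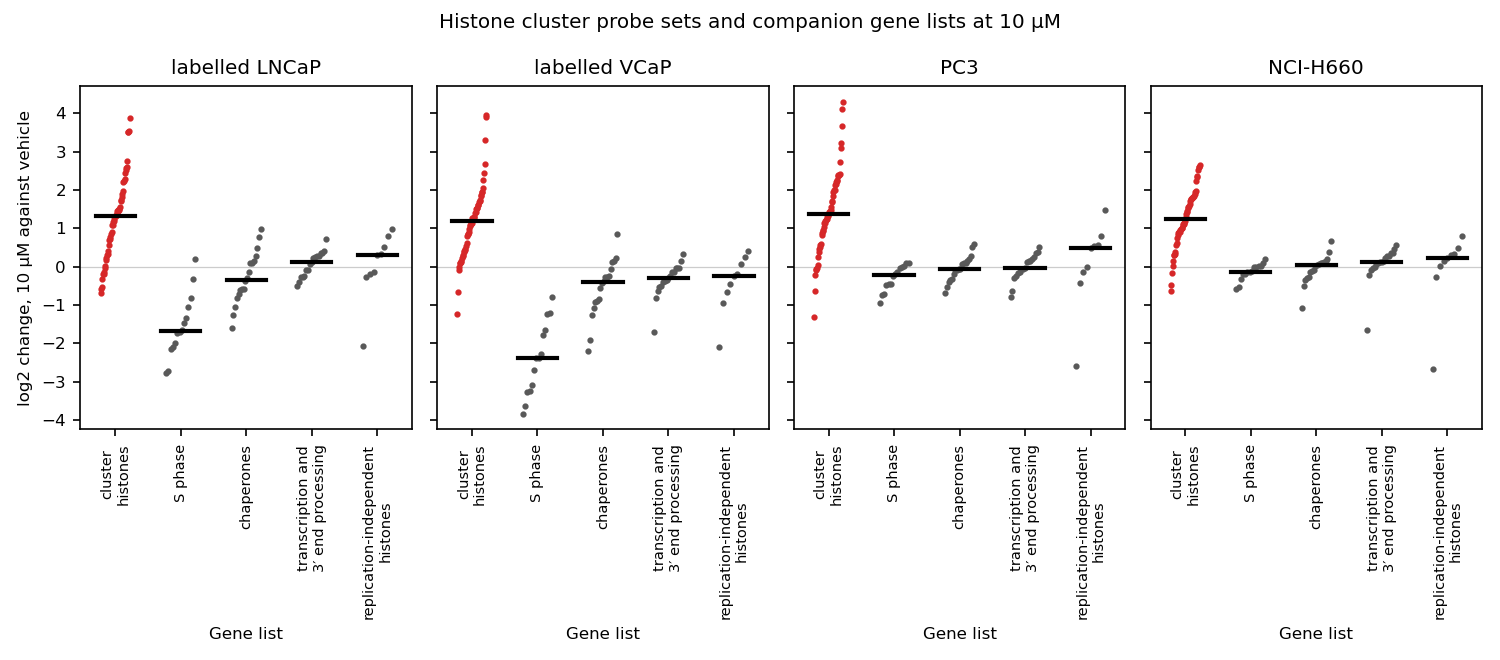
Log2 change at 10 µM against vehicle (vertical axis) of the 52 histone cluster probe sets (red) and of 4 companion gene lists (grey), with 1 panel per line, 1 point per probe set or gene and a bar at each median. The histone medians lie between 1.20 and 1.38 in the 4 panels, and the S phase medians at -1.67 and -2.39 in the panels labelled LNCaP and VCaP and near 0 in the others.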

How the data were processed

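Polyadenylated RNA of 4 cell lines in 3 conditions was hybridised to 24 Affymetrix U133 Plus 2.0 arrays. The authors deposited the linear-scale intensity of each probe set, summarised by MAS5 and scaled within each array. Detection calls were not used here. After 62 control probe sets were left out, 54613 probe sets were taken to log2 and fitted in 1 model of 12 groups with limma 3.58.1 in R 4.3.3, with empirical Bayes moderation without a trend (12 residual degrees of freedom, prior 1.29). Benjamini-Hochberg adjustment ran over every tested probe set of a contrast. The calls used an adjusted p under 0.1, more than a 2-fold difference, and a mean of 100 or more in one of the groups compared. A fold against a group mean under 100 is given against 100, as a lower bound.

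Gene symbols came from the platform annotation, updated by gene ID through RefSeq, which matched all 46 genes. Promoter windows came from RefSeq. The members and the companion lists were chosen with earlier results of these data known. A gene of a companion list was represented by the probe set of highest mean log2 signal, with _x_at taken only where it was the sole kind. Values on every array are given for members called in 3 or more lines at the same concentration, for the 3 largest called rises in each line at each concentration, and for each class's probe set of highest mean log2 signal. From the companion lists the rule named genes called in at least 2 contrasts, up to 4 a list by size of change, with SLBP, NPAT and MYC.

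The fit was tested on simulated data. Alternatives were quantile normalization, median centring, an offset of 32, an intensity trend, each line fitted alone, a replicate block, an adjusted p under 0.05, no fold minimum, floors of 0 and 200, and leaving out each array in turn. After the data had been seen, the bound on the fold, medians with means under 100 set at 100, and a fit without the arrays labelled LNCaP and VCaP were added.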

Additional observations from a re-analysis of the deposited data

Results flagged for a closer look

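The change against vehicle of some histone probe sets differed between lines when the difference itself was tested in limma's model. The number of the 52 that differed between the arrays labelled LNCaP and VCaP was 5 at 0.5 µM and 10 at 10 µM. Of all probe sets, 1.91% and 5% differed there. Between those labelled LNCaP and PC3 the number was 4 and 11 (1.99% and 6.48% of all probe sets). Between those labelled LNCaP and NCI-H660 it was 3 and 6 (2.84% and 9.55%). Between the arrays labelled VCaP and PC3 it was 1 and 5 (1.88% and 4.14%). Between those labelled VCaP and NCI-H660 it was 2 and 3 (2.32% and 6.67%), and between PC3 and NCI-H660 2 and 3 (0.443% and 2.6%). The members' share was near that of all probe sets between the arrays labelled VCaP and PC3 at 0.5 µM. It was also near it between NCI-H660 and either labelled set at 10 µM.

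All 4 group means behind a difference reached the signal of 100 for 2 and 6 of these between the arrays labelled LNCaP and VCaP, 1 and 6 between those labelled LNCaP and PC3, 1 and 2 between those labelled LNCaP and NCI-H660, 1 and 5 between those labelled VCaP and PC3, and 1 at each concentration in both other pairs. The others have a mean under 100, and no size is given for them. Among those with all 4 means at 100 or more, the largest differences in log2 change, first line minus second, were as follows. Between the arrays labelled LNCaP and VCaP, H2BC4 gave 1.25 (SE 0.15, limma adjusted p = 0.000626) at 0.5 µM and H2BC21 gave 2.14 (SE 0.16, limma adjusted p = 4.7e-06) at 10 µM. Between the arrays labelled LNCaP and PC3, H2AC8 gave -1.05 (limma adjusted p = 0.00304) at 0.5 µM and H2BC21 gave 1.44 (limma adjusted p = 8.94e-05) at 10 µM. Against NCI-H660, the arrays labelled LNCaP differed most in H2BC21, by 1.42 (limma adjusted p = 0.00039) and 2.17 (limma adjusted p = 2.59e-06). H2AC8 gave -1.24 and -1.43 (SE 0.15, limma adjusted p = 0.000468 and 0.000121) between the arrays labelled VCaP and PC3 at 0.5 and 10 µM. Between those labelled VCaP and NCI-H660, H4C5 gave 1.07 (SE 0.30, limma adjusted p = 0.0838) at 0.5 µM and H1-2 gave -1.18 (SE 0.14, limma adjusted p = 0.000145) at 10 µM. H2AC8 led between PC3 and NCI-H660, with 1.29 (limma adjusted p = 0.00391) at 0.5 µM and 1.35 (limma adjusted p = 0.000642) at 10 µM.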

How the results depend on the processing

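Of 163 called changes of histone probe sets, against vehicle or between the concentrations, 0 changed sign under any alternative. These had been called for differing by more than 2-fold. The sign could turn only under the normalizations, the offset or leaving out an array of the comparison. Other settings leave the log2 change itself as it was, so they do not test the sign. No longer called were 6 under quantile normalization, 10 under median centring, 19 with an offset of 32, 0 with an intensity trend, 10 at an adjusted p under 0.05 and 67 with each line fitted alone. With each line fitted alone, which leaves few residual degrees of freedom, limma called 0 higher in PC3 at 0.5 µM, 16 in PC3 at 10 µM, 0 in NCI-H660 at 0.5 µM, and 0 in each of the 4 lines between 10 and 0.5 µM. At an unadjusted p under 0.05 those fits still gave 27 and 25 in those lines at 0.5 µM, and 13 to 20 between the concentrations. With no fold minimum, 18 were called on the arrays labelled VCaP at 0.5 µM, and 14, 8, 9 and 13 between the concentrations on the arrays labelled LNCaP, those labelled VCaP, PC3 and NCI-H660. Between the concentrations, 1 was called on the arrays labelled VCaP under median centring and at an adjusted p under 0.05, and 1 in NCI-H660 with the offset. With plain probe sets alone, the genes called numbered 13 and 11 for labelled LNCaP and VCaP arrays at 10 µM, 8 and 17 in PC3 at 0.5 and 10 µM, and 12 for NCI-H660 at 10 µM. Counts under the alternatives in this section cover the histone probe sets only, without the share over all probe sets.

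Leaving out each array in turn gave 12 to 16 and 21 to 24 called higher at 0.5 and 10 µM on the arrays labelled LNCaP, 10 to 12 and 19 to 21 on those labelled VCaP, 16 to 19 and 24 to 30 in PC3, and 8 to 13 and 19 to 23 in NCI-H660. Between the concentrations it gave 4 to 6, 1 to 2, 2 to 5 and 1 to 3, and by limma it gave 0 lower throughout. The labels do not state whether arrays with the same replicate number were paired. No effect shared by same-numbered arrays was seen, as their deviations correlated at -0.056 to 0.076 over 12 pairs of groups. With the replicate number as a block, 14 and 23, 10 and 20, 17 and 30, and 11 and 22 were called, and 4, 2, 3 and 2 between the concentrations.

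Where both means lie under the signal of 100, as for 11 probe sets in all groups, a change could not be measured at this signal over background. With 2 arrays a group, changes just under 2-fold, such as those of H2AC6 on the arrays labelled VCaP, turn on the fold minimum.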
